A study of Mus musculus with 80 samples.

Results

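The livers compared here are those of fed mice in the middle of the rest phase and in the middle of the active phase, taken 12 h apart in circadian phase. They were chosen by their titles: of 80 liver libraries, the 16 titled control at circadian time (CT) 8, 20, 32 and 44 were used, 8 from the rest phase (CT8 and CT32) and 8 from the active phase (CT20 and CT44). All mice were C57BL/6J, an inbred laboratory strain, bought at 8 to 12 weeks of age. They were kept on chow under a cycle of 12 h light and 12 h dark for 10 days and then moved to constant darkness. The CT32 and CT44 libraries form the second cycle, a day later in darkness than those of CT8 and CT20. Cycle and time in darkness thus cannot be told apart. Controls ate ad libitum throughout, and each time has 2 males and 2 females, with about 40 mg of the left liver lobe taken. The study also fasted mice, whose food was removed at CT10, and 8 fasted libraries of CT32 and CT44, without food for 22 h and 34 h, serve here for 1 comparison.

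In nocturnal mice, the subjective day is the time of rest and little feeding, and the subjective night the time of activity and most feeding. In liver cells the clock is a transcriptional loop: BMAL1 with CLOCK or NPAS2 binds E-boxes and activates the Period and Cryptochrome genes, whose proteins repress it in turn. A second loop couples it to the nuclear receptors REV-ERBα and REV-ERBβ (Nr1d1 and Nr1d2), which repress Bmal1, and the ROR receptors, which activate it. The loops drive transcription factors such as DBP, TEF and E4BP4 (Nfil3), and through them and the timing of meals a large share of liver metabolism is rhythmic.

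Gene counts per library summed to between 25534901 and 54096970, with a median of 42512100, on the table as deposited. Titles decided the group of each library, since the detailed labels call all 16 female, against 8 titles, and call the 8 rest-phase libraries fasted, against their titles. The sex-linked genes Xist and Ddx3y went with the title in 16 of 16. Cyp4a14, a fatty acid hydroxylase gene that fasting raises, lay between 86.5 and 846 CPM (counts scaled to a common library size) in the libraries titled control at CT32 and between 6281 and 8746 CPM in those titled fasted, although the labels call both fasted. No such check exists at CT8, a time before the fast began. The second female of CT8 stands apart: 31.3% of its counts fell on Rn18s-rs5, a ribosomal RNA gene, against 0.0705% to 1.38% in the other 15 libraries. It also held the most counts of T or NK cell markers, 149 CPM over 7 genes against at most 10.5 CPM in any other library, and the highest sums of B cell, Kupffer cell and neutrophil markers. The part of these in the results was not tested, and counts with and without this library are given below.

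Of the 9 hepatocyte markers, 2 (Tat and Hnf4a) were higher in the active phase and none in the rest phase, and their summed level ran from 85021 to 109329 CPM in rest libraries and from 103874 to 133378 CPM in active ones. Markers of Kupffer cells (11 genes), stellate cells (8), B cells (6) and T or NK cells (7) gave no call, while 19.5% of all genes tested were called. Of sinusoidal endothelium, 1 of 9 markers (Clec4g) was called, of bile duct 1 of 6 (Sox9, with the list's median at −0.11) and of erythroid cells 2 of 5 (Hba-a1 and Hba-a2, median 0.34), all higher in the active phase. In bulk tissue, fewer cells of a type and less RNA per cell cannot be told apart.

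About 1 gene in 5 differed between the 2 phases. Of 19077 genes with enough counts to be tested, 3727 (19.5%) were called at an adjusted p under 0.05 by edgeR's quasi-likelihood test, 1870 (9.8%) higher in the active phase and 1857 (9.73%) higher in the rest phase. Most differences were modest, with a median size of 0.49 on the log2 scale among the genes called. A difference of at least 2 times was reached by 741 of them, 418 higher in the active and 323 in the rest phase, and one of at least 8 times by 56, of which 39 were higher in the active phase. The values of the 8 rest and 8 active libraries did not overlap at all for 675 genes (3.54%), 671 of which were called. Without the CT8 library rich in ribosomal RNA, 4171 of 20095 genes were called, 1980 higher in the active and 2191 in the rest phase, and 3422 of the 3727 genes were called again in the same direction.

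Most core clock genes differed between the phases, in both directions. Of 16 core clock genes, 7 were higher in the active phase, 6 higher in the rest phase and 3 were not called, against 19.5% of all genes called. The median of the 16 was −0.06 on the log2 scale. For 10 of the 16 the 8 and 8 libraries did not overlap, against 3.54% of all genes. Values are given as CPM scaled by TMM, differences as active minus rest on the log2 scale with their standard error (8 against 8 libraries).

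Bmal1, the activator at the centre of the loop, had 0.838 to 3.55 CPM in the rest libraries with a median of 1.48, and 31.1 to 40.1 CPM with a median of 37.7 in the active ones. The highest rest value belonged to the CT8 library rich in ribosomal RNA, and it still lay far below the lowest active value. The difference was 4.63 ± 0.24 (24.7 times, edgeR adjusted p = 5.52e-07). Npas2, which can take the place of CLOCK, ran from 0.0756 to 0.512 CPM (median 0.165) at rest and from 5.41 to 18.7 CPM (median 9.13) in the active phase, a difference of 5.76 ± 0.21 (54.1 times, edgeR adjusted p = 3.48e-09). Clock itself, often described as the steadier partner, was also higher in the active phase in every library, by 1.35 ± 0.08, from a median of 34.6 to 88.7 CPM. Cry1, a late repressor, rose from a rest median of 6.46 CPM (3.96 to 9.65) to an active median of 54.2 CPM (45.7 to 57.3), a difference of 2.95 ± 0.13 (edgeR adjusted p = 5.43e-08). The nuclear receptor gene Rora (0.35 ± 0.09) and the kinase gene Csnk1d (0.15 ± 0.04) passed the test with overlapping groups. The Csnk1d call was lost in 12 of 16 fits without 1 library (edgeR adjusted p up to 0.0810).

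The REV-ERB receptors moved the other way. Nr1d1 had 81.7 to 216 CPM (median 143) at rest and 1.16 to 4.56 CPM (median 3.22) in the active phase, a difference of −5.57 ± 0.12 (47.5 times, edgeR adjusted p = 3.13e-11), and Nr1d2 fell from a median of 128 to 14.4 CPM, by −3.22 ± 0.09. Ciart, which encodes the repressor CHRONO, had 13.0 to 33.0 CPM at rest and 0.416 to 2.41 CPM in the active phase (−4.09 ± 0.20). Every rest library lay above every active library for all 3 genes.

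The Period genes did not move together. Per3 was 5.78 times higher at rest (−2.53 ± 0.13, 68.8 to 109 against 8.82 to 20.5 CPM) and Per1 2.77 times (−1.47 ± 0.10, 39.0 to 74.0 against 15.5 to 24.9 CPM). Per2 ran from 37.1 to 84.2 CPM at rest and from 27.5 to 98.2 CPM in the active phase, a difference of 0.01 ± 0.14 (edgeR adjusted p = 0.966). Over all 40 control libraries, taken every 4 h, the mean of Per2 was highest at CT40 and lowest at CT28, so that its extremes lay between the times compared here. Cry2 was slightly higher at rest (−0.27 ± 0.08, edgeR adjusted p = 0.0339), with −0.01 in the first and −0.52 in the second cycle, and the call was lost in 9 of 16 fits without 1 library (edgeR adjusted p up to 0.103). The kinase gene Csnk1e was not called (−0.13 ± 0.09).

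**Figure D1:**
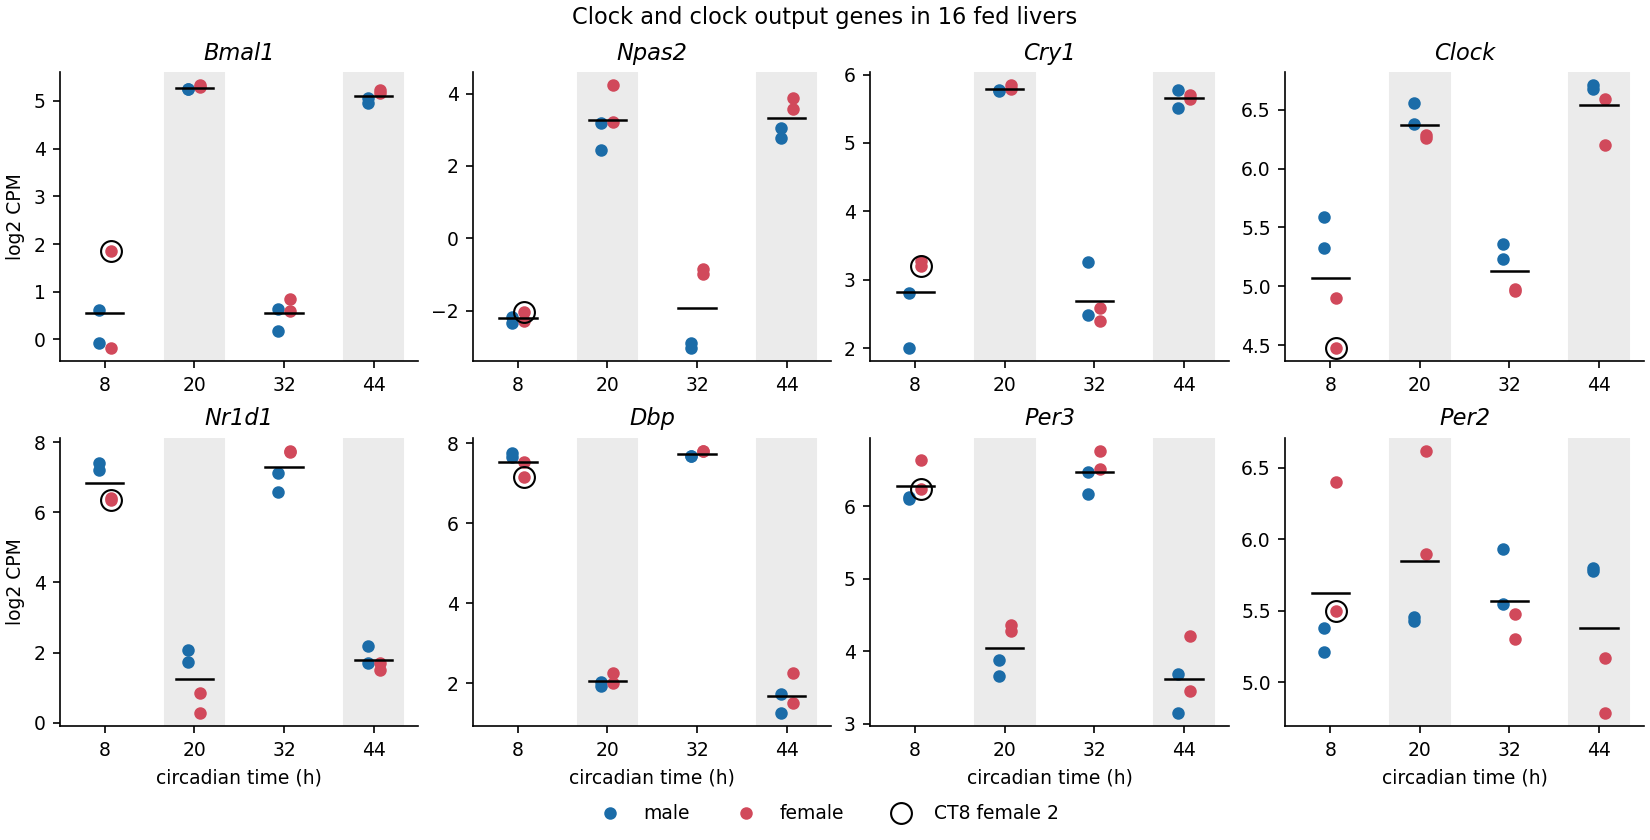
Log2 CPM (vertical axis) of 6 core clock genes, the output gene Dbp and Per2 in each of the 16 fed livers by circadian time in hours (horizontal axis). Blue points are males, red points females, black bars the mean of the 4 libraries of a time, grey bands the active phase, and the open ring marks the CT8 library with 31.3% of its counts on Rn18s-rs5. For every gene but Per2 the rest and active libraries do not overlap.

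Genes directly downstream of the clock followed the same division. Of 13 clock outputs, 8 were higher at rest, 3 higher in the active phase and 2 were not called (84.6% called, against 19.5% of all genes), with a median difference of −1.0. Dbp, the activator that binds D-boxes, had 142 to 226 CPM (median 205) at rest and 2.33 to 4.76 CPM (median 3.87) in the active phase (−5.77 ± 0.13, 54.4 times, edgeR adjusted p = 3.13e-11). Its relative Tef fell from a median of 276 to 90.1 CPM (−1.61 ± 0.08), whereas the third member of the family, Hlf, was not called (−0.29 ± 0.11, edgeR adjusted p = 0.0983, and 0.00462 without the CT8 library rich in ribosomal RNA). Nfil3, which encodes the repressor of the same D-boxes, ran opposite, from 4.43 to 13.8 CPM at rest to 24.5 to 54.7 CPM in the active phase (2.10 ± 0.14). Bhlhe41 (DEC2, a repressor at E-boxes) was higher at rest by −3.52 ± 0.21 and Bhlhe40 (DEC1) by −0.62 ± 0.13. Also higher at rest were Wee1, a brake on entry into mitosis (−1.69 ± 0.10), Usp2, a deubiquitinase (−1.75 ± 0.13), Gadd45a (−1.23 ± 0.18) and Pim3 (−1.0 ± 0.21). Tsc22d3, a target of glucocorticoids (1.15 ± 0.14), and Lonrf3 (2.45 ± 0.21) were higher in the active phase. Nampt, which makes a precursor of NAD, was not called (−0.17 ± 0.08, edgeR adjusted p = 0.152, and 0.0367 without the CT8 library). Over all 40 control libraries its mean log2 CPM was highest at CT36 (7.49) and lowest at CT28 (5.56), between the times compared here.

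Promoter windows were searched for the letters that clock factors are known to bind. RefSeq windows on build GRCm38.p6, from 250 bases before to 50 after each start, were matched for 23 of the 29 clock and output genes and for 11893 of the 19077 genes tested. Of those 23 clock and output genes, 10 held at least 1 of the 4 motifs named here in a window and 13, among them Dbp, Nr1d1, Nr1d2 and Npas2, held none. On either strand, CACGTG (the E-box) occurred in a window of 10.9% of those 11893 genes, in 15.0% of the 1351 called higher at rest and in 10.6% of the 1292 called higher in the active phase. TAGGTCA, the core of the element that REV-ERB and ROR receptors bind, occurred in 2.52% of all, 2.37% of the rest genes and 3.41% of the active genes. The D-box forms TTATGTAA and TTATGCAA occurred in 0.832% and 0.824% of all, in 0.962% of the rest genes for either form and in 1.16% of the active genes for either form. None of the 4 motifs contains another, the shares were not tested, and a match is a description and not a bound site.

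The following stretches lie just before the start, each written 5′ to 3′ on the strand of the gene, with matches in capitals. They were chosen among the 10 genes with a match, to show each motif beside a gene with a large difference. Ciart (chr3:95882229-95882478, minus strand), higher at rest, holds 3 E-boxes, and Per1 (chr11:69098699-69098948, plus strand), higher at rest, an E-box and a D-box form. Per3 (chr4:151044666-151044915, minus strand), also higher at rest, holds 2 D-boxes. Cry1 (chr10:85185055-85185304, minus strand), higher in the active phase, holds an E-box, and Nfil3 (chr13:52981040-52981289, minus strand), higher in the active phase, the receptor core read on the other strand. For Bmal1 (chr7:113207530-113207559, plus strand) the core lies shortly after a start and 30 bases around it are shown.
Ciart: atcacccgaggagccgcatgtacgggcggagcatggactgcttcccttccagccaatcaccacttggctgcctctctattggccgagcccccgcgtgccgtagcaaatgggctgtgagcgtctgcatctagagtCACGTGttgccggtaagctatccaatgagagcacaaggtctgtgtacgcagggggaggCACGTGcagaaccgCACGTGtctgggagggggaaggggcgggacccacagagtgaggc
Per1: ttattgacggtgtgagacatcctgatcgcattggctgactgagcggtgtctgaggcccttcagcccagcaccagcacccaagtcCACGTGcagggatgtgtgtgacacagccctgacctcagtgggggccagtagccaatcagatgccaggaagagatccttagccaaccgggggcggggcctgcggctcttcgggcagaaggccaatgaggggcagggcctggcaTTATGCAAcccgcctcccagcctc
Per3: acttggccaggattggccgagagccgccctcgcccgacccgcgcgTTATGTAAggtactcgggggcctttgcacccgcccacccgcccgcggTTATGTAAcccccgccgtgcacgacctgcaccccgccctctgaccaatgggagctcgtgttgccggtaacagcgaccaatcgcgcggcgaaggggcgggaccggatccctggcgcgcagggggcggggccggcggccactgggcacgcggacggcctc
Cry1: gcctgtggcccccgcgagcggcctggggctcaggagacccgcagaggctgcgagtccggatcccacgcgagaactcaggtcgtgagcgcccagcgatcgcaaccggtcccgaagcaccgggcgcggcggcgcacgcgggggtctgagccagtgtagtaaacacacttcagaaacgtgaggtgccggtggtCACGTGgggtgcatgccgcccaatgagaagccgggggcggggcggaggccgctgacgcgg
Nfil3: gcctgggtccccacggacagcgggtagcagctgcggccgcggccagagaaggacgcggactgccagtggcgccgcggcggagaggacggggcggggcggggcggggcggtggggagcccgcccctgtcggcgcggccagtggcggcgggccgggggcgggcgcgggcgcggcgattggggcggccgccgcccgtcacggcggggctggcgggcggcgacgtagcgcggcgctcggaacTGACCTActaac
Bmal1: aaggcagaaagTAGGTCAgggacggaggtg
Ciart and Cry1 thus share the E-box letters while differing in opposite directions between the phases (−4.09 and 2.95 on the log2 scale).

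Beyond the clock, the genes with the largest differences, a mean log2 CPM of at least 1, the same sign in both cycles and no overlap were led at rest by Rgs16, a brake on G protein signalling. Rgs16 ran from 45.9 to 170 CPM at rest and from 0.0878 to 5.17 CPM in the active phase (−5.84 ± 0.54, edgeR adjusted p = 0.000105). Erbb4, a receptor tyrosine kinase (−2.63 ± 0.23), Trib3, a pseudokinase induced by stress (−2.51 ± 0.27), and Gpcpd1, which breaks down glycerophosphocholine (−2.16 ± 0.13), followed.

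In the active phase the list held Cdkn1a, the cell cycle inhibitor p21, with 0.597 to 2.91 CPM at rest and 7.96 to 32.5 CPM when active (3.99 ± 0.37, edgeR adjusted p = 5.49e-05). Loxl4, a lysyl oxidase of the matrix (3.44 ± 0.21), Chka, the choline kinase that opens the synthesis of phosphatidylcholine (3.29 ± 0.13, medians of 16.9 and 157 CPM), and Tubb2a, a β-tubulin (2.86 ± 0.15), came next. Pdk4, which holds pyruvate back from oxidation (2.81 ± 0.21), Dhrs9, a retinol dehydrogenase (2.66 ± 0.17), the nuclear receptor gene Ppard (2.62 ± 0.13) and Fam222a (2.48 ± 0.27) completed it. Chka and Gpcpd1 thus sit at opposite ends of choline phospholipid handling and peaked in opposite phases, with control means highest at CT20 and CT32.

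Genes of glucose output and glycogen went in both directions. Of 16, 6 were higher at rest, 3 higher in the active phase and 7 not called (56.2% called, against 19.5% of all genes). Gys2, the liver glycogen synthase, had 212 to 395 CPM (median 330) at rest and 85.8 to 136 CPM (median 108) in the active phase (−1.48 ± 0.08, edgeR adjusted p = 1.61e-07). The subunits that bring protein phosphatase 1 to glycogen did not move as one. Ppp1r3b rose from a median of 93.3 to 540 CPM (2.32 ± 0.12) and Ppp1r3c from 32.1 to 170 CPM (2.21 ± 0.20), whereas the scarce Ppp1r3g was higher at rest (−3.02 ± 0.46). Pck1, of gluconeogenesis (−0.92 ± 0.11), Slc2a2, the glucose transporter GLUT2 (−1.05 ± 0.21), and Ugp2 (−0.70 ± 0.13) were higher at rest, and G6pc1, which releases free glucose, was higher in the active phase (0.57 ± 0.18, edgeR adjusted p = 0.0463).

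Of 19 genes of lipogenesis and glycolysis 3 (15.8%, against 19.5% of all genes) were called, all higher in the active phase, a share near that of all genes. The list's median was 0.33, with 0.46 in the first cycle and 0.02 in the second. Without the CT8 library rich in ribosomal RNA it was 0.18. Among the 3 genes called were Insig2, which retains the sterol sensor in the endoplasmic reticulum (42.6 to 110 against 189 to 356 CPM, 1.80 ± 0.18), and Acacb (0.74 ± 0.23, edgeR adjusted p = 0.0463, and 0.109 without the CT8 library). The synthetic enzymes Fasn (−0.17 ± 0.28), Acly (0.51 ± 0.27) and Scd1 (0.33 ± 0.25) were not called. In fatty acid oxidation and ketogenesis, 4 of 25 genes were higher at rest and 3 in the active phase (28% called, against 19.5% of all genes). Cpt1a, the gate of mitochondrial fatty acid uptake, had 393 to 821 CPM at rest and 242 to 434 CPM in the active phase (−0.89 ± 0.13), and Bdh1 of ketone body metabolism (−0.80 ± 0.09), Fabp1 (−0.48 ± 0.12) and the receptor gene Ppara (−0.57 ± 0.09) went with it. Pdk4, Plin5, a lipid droplet protein (1.28 ± 0.14), and Cpt2 (0.33 ± 0.07) went the other way.

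Of 20 bile acid genes, 6 were higher in the active phase and 3 at rest (45.0% called, against 19.5% of all genes). Without the CT8 library rich in ribosomal RNA the counts were 5 and 5. Hsd3b7, an early enzyme of the synthesis, had 5.78 to 11.8 CPM at rest and 20.2 to 24.6 CPM in the active phase (1.57 ± 0.06, edgeR adjusted p = 3.22e-09). Cyp8b1, which sets the share of cholic acid (0.63 ± 0.13), Baat, which conjugates bile acids (0.43 ± 0.08), and Cyp7a1, the rate-limiting enzyme (0.69 ± 0.19, edgeR adjusted p = 0.0254, and 0.0756 without the CT8 library), were higher in the active phase. The transporter genes Abcc2 (−0.66 ± 0.10) and Slc10a1 (−0.44 ± 0.12) were higher at rest.

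**Figure D2:**
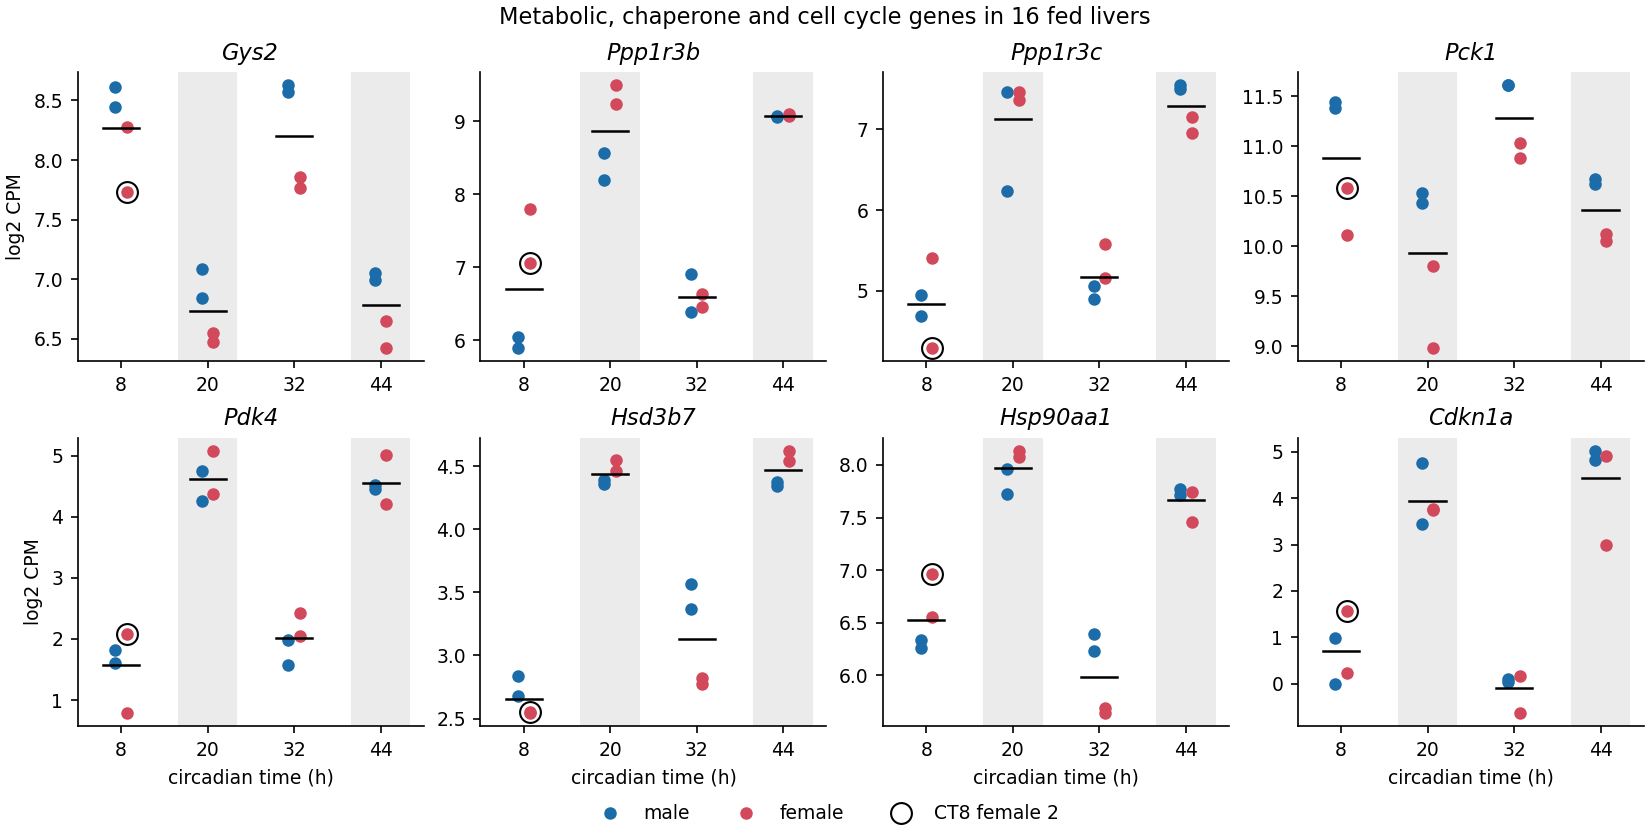
Log2 CPM (vertical axis) of glycogen, gluconeogenic, pyruvate, bile acid, chaperone and cell cycle genes in the 16 fed livers by circadian time in hours (horizontal axis), with blue males, red females, black means of 4 libraries, grey bands for the active phase and a ring for the CT8 library rich in ribosomal RNA. Gys2 and Pck1 stand higher at rest and the other 6 genes higher in the active phase, and only for Pck1 do the groups overlap.

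Many chaperone genes were higher in the active phase. Of 20 heat shock and cold-inducible genes 11 were higher in the active phase, 2 higher at rest and 7 not called, with a median of 0.45; among all genes 9.8% were higher in the active phase. Hsp90aa1, the inducible HSP90, had 49.7 to 124 CPM (median 78.6) at rest and 176 to 281 CPM (median 216) in the active phase (1.57 ± 0.08, edgeR adjusted p = 4.29e-08). Its partners Fkbp4 (0.93 ± 0.06) and Stip1 (0.76 ± 0.06), the HSP110 gene Hspa4l (1.27 ± 0.08) and the small heat shock gene Hspb1 (2.19 ± 0.26) rose as well. The 2 genes higher at rest, Cirbp (−0.46 ± 0.12) and Rbm3 (−0.45 ± 0.13), are the cold-inducible RNA-binding members, known to rise when body temperature falls. The stress-inducible Hspa1a (0.50 ± 0.36) and Hspa1b (0.01 ± 0.22) were not called. The list's median was 0.33 in the first cycle and 0.59 in the second, and 16 of the 20 had the same sign in both. By edgeR, 8 of the 20 had an unadjusted p under 0.05 for the cycle difference, against 7.96% of all genes.

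Of 23 genes of the endoplasmic reticulum list 11 were higher in the active phase and 2 at rest (56.5% called, against 19.5% of all genes, median 0.28), and without the CT8 library the counts were 8 and 3. Pdia4, a protein disulphide isomerase (0.47 ± 0.07), and Edem1 and Sdf2l1, which act on misfolded proteins (0.46 ± 0.07 and 0.86 ± 0.18), rose, and Hspa5, the chaperone BiP, was not called (0.42 ± 0.14, edgeR adjusted p = 0.0547). The 2 higher at rest were the stress-response genes Trib3 and Herpud1 (−0.79 ± 0.11), and the list also holds other members that are not chaperones.

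In the one-carbon and methionine cycle, which feeds methyl groups to the cell, 11 of 25 genes (44%, against 19.5% of all genes) were called, 7 higher in the active phase and 4 at rest, with a median of 0.23. Ahcy, which clears S-adenosylhomocysteine, had 566 to 1121 CPM at rest and 1297 to 1431 CPM in the active phase (0.59 ± 0.07, edgeR adjusted p = 0.000119). Bhmt, which remethylates homocysteine from betaine (1.15 ± 0.21), its relative Bhmt2 (0.45 ± 0.08), Shmt1 (0.32 ± 0.08), Sardh (0.33 ± 0.09), Nnmt, which spends methyl groups on nicotinamide (1.19 ± 0.28), and Cth, of transsulphuration (0.85 ± 0.21, edgeR adjusted p = 0.0164, and 0.0560 without the CT8 library), were also higher. Mat2b (−0.25 ± 0.05), Mthfs (−0.30 ± 0.09) and Mtr (−0.24 ± 0.07) were among those higher at rest, and for these genes the groups overlapped. The main synthetase of S-adenosylmethionine in liver, Mat1a, was not called (0.29 ± 0.10, edgeR adjusted p = 0.0622). The active-phase calls were larger in the first cycle, with Bhmt at 1.73 and 0.56 and Nnmt at 1.95 and 0.44 in the first and second cycle. The list's median was 0.33 in the first cycle and 0.06 in the second. By edgeR, 9 of the 25 had an unadjusted p under 0.05 for the cycle difference, against 7.96% of all genes.

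Of 14 genes of NAD synthesis, 4 were higher in the active phase and 3 at rest (50% called, against 19.5% of all genes). Acmsd, which diverts tryptophan carbon away from NAD, differed most (2.22 ± 0.39), although its groups overlapped, with 7.55 to 59.8 against 38.7 to 226 CPM. Nadsyn1, the last step from nicotinic acid, was higher at rest (−0.51 ± 0.06). Among 22 genes of the urea cycle and amino acid breakdown, 5 were higher in the active phase, among them Nags, which makes the activator of the cycle's first enzyme (35.7 to 62.5 against 73.5 to 91.7 CPM, 0.70 ± 0.06), Asl (0.58 ± 0.11) and Tat (0.94 ± 0.18), and Bckdha was higher at rest (−0.24 ± 0.07). In all 27.3% of the list were called, against 19.5% of all genes. The list's median was 0.52 in the first cycle and −0.04 in the second, 10 of the 22 had the same sign in both, and 10 had an unadjusted p under 0.05 for the cycle difference.

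Of 23 drug metabolism genes, 4 were higher in each phase (34.8% called, against 19.5% of all genes). Por, which passes electrons to all microsomal cytochromes P450, was 2.09 times higher at rest (428 to 620 against 186 to 314 CPM), and Alas1, the first enzyme of haem synthesis (−1.56 ± 0.39), Cyp2a5 (−0.84 ± 0.18) and Cyp2e1 (−0.63 ± 0.15) went with it. Cyp3a13 (0.60 ± 0.05), Sult1a1 (0.66 ± 0.08), Gsta3 (0.61 ± 0.10) and Cyp2b10 (1.57 ± 0.43) were higher in the active phase. Of 15 glucocorticoid-responsive genes (53.3% called, against 19.5% of all genes), 6 were higher in the active phase, Zbtb16 (1.52 ± 0.28) and Dusp1 (0.99 ± 0.21) among them, while Per1 and Klf9 (−0.52 ± 0.14) were higher at rest and Fkbp5 was not called (−0.21 ± 0.23).

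Of 24 genes of ribosome biogenesis 2 (8.33%, against 19.5% of all genes) were called (Ubtf, −0.25 ± 0.06, and Npm1, −0.34 ± 0.10, both higher at rest), and the median was −0.02. In the cell cycle list of 14 genes (28.6% called, against 19.5% of all genes), Ccnd1 (−1.31 ± 0.16), Ccne1 (−1.84 ± 0.29) and Wee1 were higher at rest and Cdkn1a in the active phase. The median of that list was −1.55 in the first cycle and 0.04 in the second, and the CT8 library rich in ribosomal RNA held by far the highest level of several of its members, with 144 CPM of Mki67 against at most 11.0 CPM in any other library and 91.3 CPM of Top2a against at most 7.38 CPM. Without it the median over both cycles was 0.28, against −0.54 with it, and the same number of genes was called. Markers of liver zones gave 2 of 10 calls each, 20% in each list, near the 19.5% of all genes: pericentral Slc1a2 (−0.51 ± 0.09) and Cyp2e1 were higher at rest, periportal Sox9 (1.31 ± 0.19) higher in the active phase and Pck1 higher at rest.

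**Figure D3:**
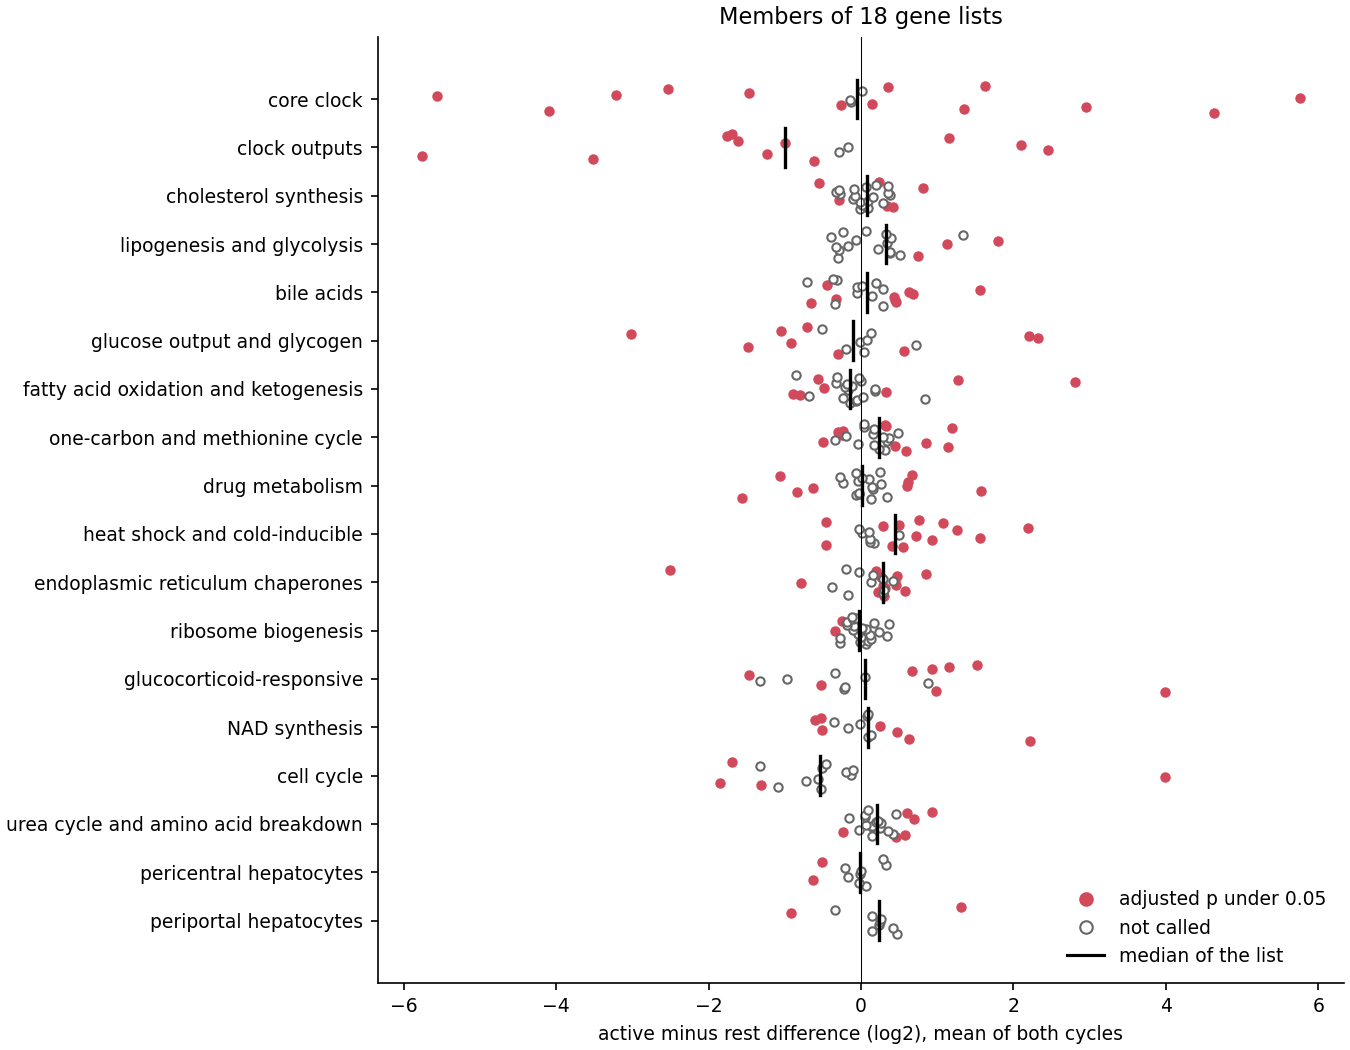
Active minus rest difference on the log2 scale (horizontal axis) for each tested member of 18 gene lists (vertical axis), as the mean of both cycles. Red points passed an adjusted p of 0.05 in edgeR, open points did not, and the black bar is the list's median, which was 0.45 for the heat shock list and −1.0 for the clock outputs.

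Most genes called in one cycle had the same sign in the other. Between CT8 and CT20, 2160 genes were called, and 94.4% of them had the same sign between CT32 and CT44, with 966 (44.7%) called there too; their median size was 0.65 in the first cycle and 0.43, in the same direction, in the second. Of the 1549 genes called between CT32 and CT44, 95.9% had the same sign in the first cycle and 62.4% were called there. Over all 19077 genes 65.7% had the same sign, and Pearson's r across genes was 0.48, a description over genes that share libraries and are not independent replicates. Dbp differed by −5.48 and −6.05, Bmal1 by 4.68 and 4.58, Gys2 by −1.54 and −1.42 and Hsp90aa1 by 1.44 and 1.69.

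The difference between the cycles was tested directly. With edgeR no gene was called (smallest adjusted p 0.464), 1519 (7.96%) had an unadjusted p under 0.05, DESeq2 called 37 and limma none. The 5 genes with the smallest p were Zfhx2, Gm16364, Ets2, Shank3 and Utp14b, with Zfhx2 at −0.05 in the first and 0.69 in the second cycle. The CT8 females bear on this count: without the first of them, which leaves the library rich in ribosomal RNA alone for that sex and time, 399 genes were called, and without that library itself none.

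Cholesterol synthesis genes differed in sign between the cycles. Over both cycles 6 of 24 genes (25.0%, against 19.5% of all genes) were called, 4 higher in the active phase (Pmvk, 0.82 ± 0.12, Ebp, Tm7sf2 and Dhcr7) and 2 at rest (Stard4, −0.55 ± 0.09, and Hsd17b7), with a median of 0.08. In the first cycle, however, 23 of the 24 were higher at CT20 than at CT8, with a median of 0.45. In that cycle 9 of the 24 were called, against 2160 of all 19077 genes. In the second cycle 4 were higher at CT44 than at CT32, with a median of −0.37. There 3 of the 24 were called, against 1549 of all 19077 genes. The sign thus changed for 19 genes, and 20 of the 24 had an unadjusted p under 0.05 for the cycle difference, against 7.96% of all genes, although none passed the adjustment over all genes.

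Insig1, a sensor of sterol supply, had 265 ± 39.0 CPM at CT8, 500 ± 145 at CT20, 422 ± 67.9 at CT32 and 284 ± 105 at CT44 (mean and SD of 4 libraries). Hmgcs1 had 280 ± 83.5, 460 ± 184, 619 ± 481 and 358 ± 135 CPM at the same times, its highest value being that of the first CT32 female, and Sqle had 76.2 ± 19.4, 150 ± 40.5, 119 ± 55.3 and 92.6 ± 23.8 CPM. Spread between the 4 libraries of a time was wide. On mean log2 CPM, the median of the 24 genes was 0.33 in males and 0.68 in females in the first cycle and 0.04 in males and −0.88 in females in the second, so that the fall in the second cycle was seen in the females and not in the males; the difference between the sexes was not tested for this list. Leaving out each library in turn kept the medians between 0.38 and 0.57 in the first and between −0.56 and −0.19 in the second cycle.

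**Figure D4:**
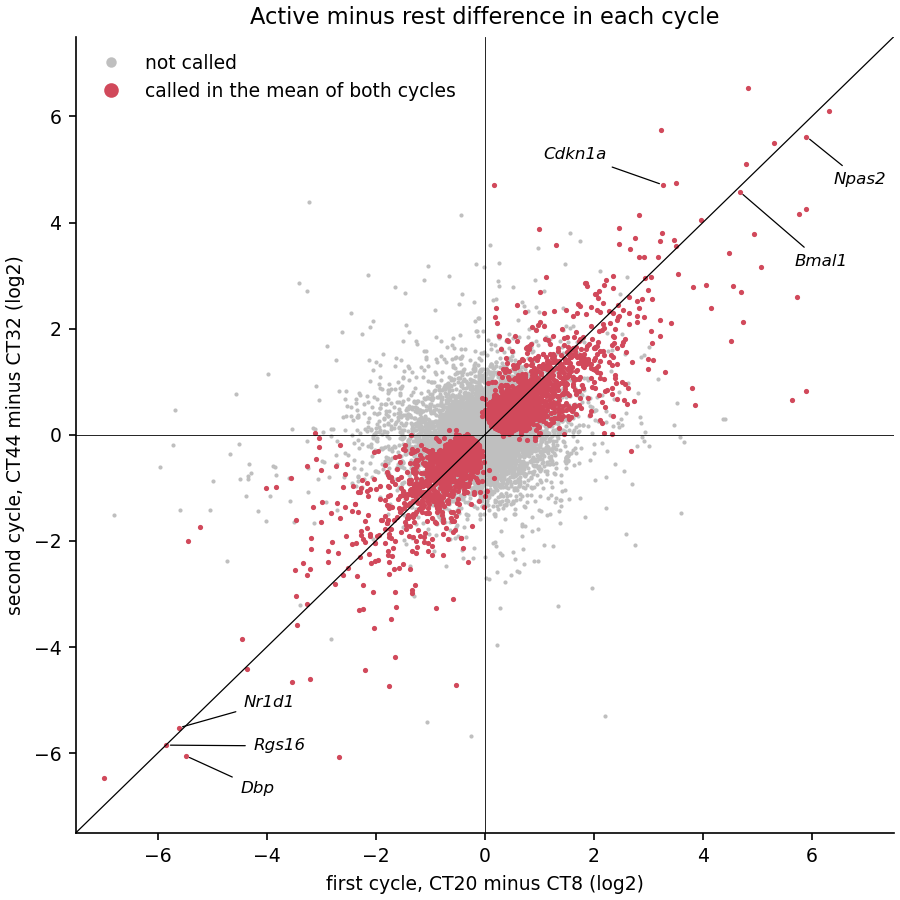
Active minus rest difference on the log2 scale in the first cycle (horizontal axis) against the second (vertical axis) for 19077 genes, in red where called over both cycles (3727 genes) and grey where not. The diagonal marks equal differences, and since the red genes were chosen on the mean of both cycles, their closeness to it is partly fixed by that choice.

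Males and females were compared in the same way. The sex difference of the phase difference gave no call in edgeR (smallest adjusted p 0.232), 908 genes (4.76%) at an unadjusted p under 0.05, 24 calls in DESeq2 and none in limma. Elovl3, a fatty acid elongase known to differ between the sexes, had the smallest p, with a phase difference of −2.93 in females relative to males on the log2 scale. In males it ran from 68.5 to 92.7 CPM at rest and from 426 to 824 CPM in the active phase. In females it was low in both phases, with 1.38 to 4.68 CPM at rest and 1.78 to 7.77 CPM in the active phase. Hsd3b7 (0.62), Id3 (1.02), Tmem25 (0.82) and Esrra (0.57) followed, all with a larger active minus rest difference in females.

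The differences of the second cycle were then set beside those of fasted mice. The contrast of CT44 with CT32 differed between fed and fasted mice for 1484 of 18994 genes (7.81%), 735 with a higher value in the fed and 749 with a lower. The fed libraries are those used above, so the fed values are not new evidence, and in fasted mice the length of the fast and the phase cannot be told apart.

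Several clock genes differed less between the phases in fasted mice. Of the 16 core clock genes 7 differed between fed and fasted, against 7.81% of all genes. For 6 of these 7 the fasted difference had the same sign and a smaller size. Nr1d1 differed by −5.53 between CT32 and CT44 in fed and by −2.24 in fasted mice (edgeR adjusted p of the difference 0.00432), Nr1d2 by −3.19 and −0.39 (2.77e-07), Bmal1 by 4.57 and 2.61 (0.00572) and Npas2 by 5.61 and 1.71 (0.00410). Ciart (−4.66 and −1.67) and Cry1 (2.95 and 1.93) were likewise called. The seventh, Per1, differed by −1.4 in fed and 0.04 in fasted mice. Of the 13 clock outputs 5 were called, against the same 7.81%. Dbp had −6.05 and −3.92 (0.0314) and Tef −1.78 and −0.85 (0.00176). Nfil3 had 2.00 and 2.41 and Lonrf3 2.35 and 2.16, neither of them called.

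Among metabolic genes, Gys2 had −1.43 in fed and −0.09 in fasted mice (edgeR adjusted p 6.69e-05), Pck1 −0.92 and 0.21 (0.000412), Ppp1r3b 2.47 and −0.05 (0.0163) and Por −1.11 and 0.66 (0.000391). Ppp1r3g turned from −2.58 to 5.58 (0.00600), and Trib3 had −2.97 and −0.09 (0.000375). Pdk4 had 2.56 and 5.43 (0.00209), and Cpt1a −0.82 and 0.05 (0.00905). The 5 genes with the smallest p were Nr1d2, S1pr1, a sphingosine phosphate receptor (1.26 and −1.18), Dnmbp (−0.24 and 1.10), Enc1 (−0.28 and 1.82) and Arhgef19 (0.96 and −0.53). Over both cycles of fed mice, S1pr1 and Arhgef19 were called and Dnmbp and Enc1 were not.

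Of the 20 heat shock and cold-inducible genes, 1 differed between fed and fasted mice, the mitochondrial chaperone gene Hspd1. That share is near the 7.81% of all genes. Hsp90aa1 had 1.68 and 1.28, Hsp90ab1 0.71 and 0.71, Hspa4l 1.06 and 1.08 and Stip1 0.70 and 0.69 in fed and fasted mice, and the medians of the list were 0.58 and 0.63. Of 24 cholesterol genes 2 were called, Hsd17b7 and Tm7sf2, and of 25 one-carbon genes also 2, both shares near the 7.81% of all genes. The one-carbon genes were Bhmt (0.56 and −0.47, adjusted p 0.00741) and Bhmt2 (0.31 and −0.37, 0.00646). A missed threshold does not show that fed and fasted mice were alike.

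**Figure D5:**
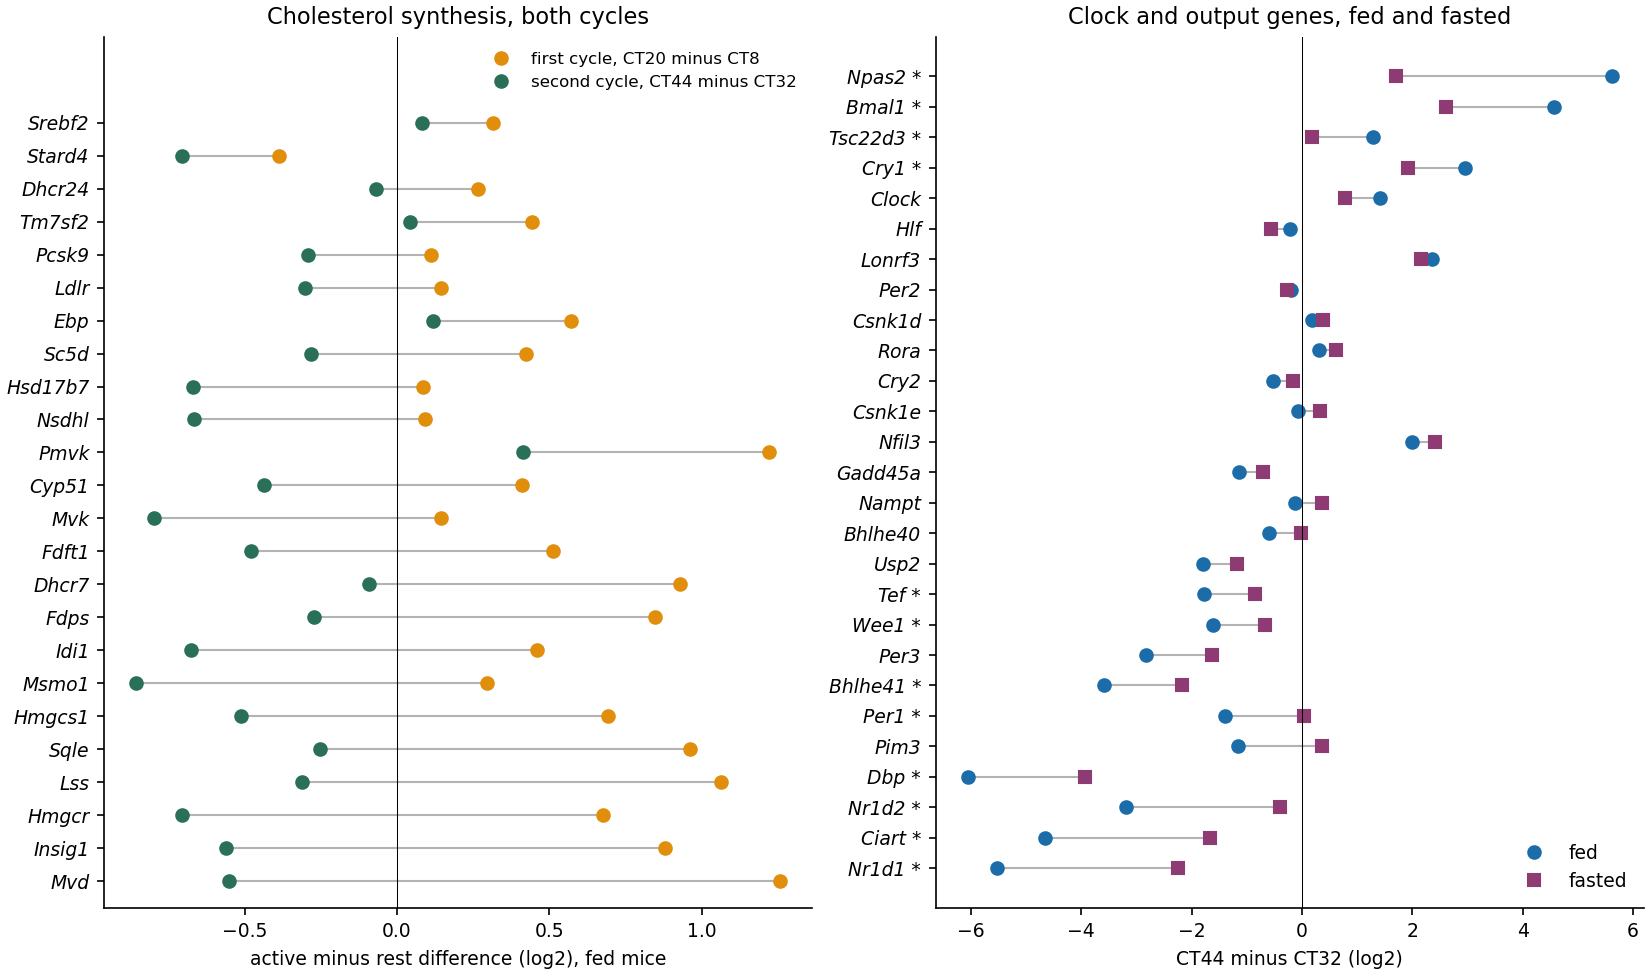
Left, active minus rest difference on the log2 scale (horizontal axis) of 24 cholesterol synthesis genes in the first (orange) and second (green) cycle of fed mice, with the sign changed for 19 genes. Right, the CT44 minus CT32 difference on the log2 scale of clock and output genes in fed (blue circles) and fasted mice (purple squares), an asterisk marking the 12 genes whose difference between fed and fasted mice was called.

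Seen over the full series of 40 control libraries, the genes called here also had their highest mean near the times compared. Of the 1857 genes higher at rest, 596 had their highest mean at CT8 and 816 at CT32, with 237 at CT12 and 149 at CT36. Of the 1870 higher in the active phase, 484 were highest at CT20, 395 at CT24, 343 at CT44 and 323 at CT40. These means include the 16 libraries compared, so they describe the genes called and do not test them.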

How the data were processed

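The counts were deposited as a table of raw reads per gene for 80 mouse liver libraries, made by the authors from stranded paired-end poly(A) libraries with Trimmomatic and HISAT2 on GRCm39 per the labels. Versions and the counting tool are not given in the sources used here. The paper is a review and holds no methods for this comparison. Tables of normalised and exon values were not used.

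Of 78275 rows, 19077 passed filterByExpr. edgeR 4.0.16 (R 4.3.3) was run with TMM scaling, a mean for each time and sex (8 residual degrees of freedom), robust quasi-likelihood F tests and Benjamini-Hochberg adjustment, and genes were called at an adjusted p under 0.05. DESeq2 1.42.0 and limma 3.58.1 were alternatives. Errors of differences are approximate standard errors, taken as the size of the log2 difference divided by the square root of its edgeR F statistic. Log2 CPM used a prior count of 2. The steps were tested on simulated data. Poly(A) selection should remove most ribosomal RNA, so Rn18s-rs5 was also removed as an alternative. The titles number the replicates within each sex but do not state that each is a separate mouse, and p-values measure the spread between these samples. Library totals set only the counting error.

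The libraries, gene lists and named genes were chosen with earlier results of these data known. Some genes that the rule names are not reported here. Named by rule were all clock and output genes, the 4 with the smallest p of every other list, the 10 largest rises and falls without overlap, at a mean log2 CPM of at least 1, with the same sign in both cycles and a gene symbol that is not a placeholder, and the 5 smallest p of each difference between cycles, sexes and treatments. Other list members were named after their values were seen. Same-numbered libraries were checked for pairing over 12 pairs, with correlations from −0.17 to 0.097, none over 0.1. The main fit did not pair them. With only 2 libraries per sex and time, this check cannot exclude a source shared by number.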

Additional observations from a re-analysis of the deposited data

Results flagged for a closer look

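Within the 8 rest or 8 active libraries, 16 of 112 groups of values had 1 library set apart, its distance from the next value, divided by the range of the 8, being above 0.526, where chance gives about 1 group in 20, or 5.6. The second CT8 female was that library for Rn18s-rs5 (gap 0.958, with 31.3% of counts), the histone share (0.704), and the summed markers of T or NK cells (0.985), neutrophils (0.648), Kupffer cells (0.620) and B cells (0.541). It was also lowest for Dbp (0.578) and Tef (0.554) and highest for Csnk1e (0.542). Other isolated values in rest libraries were those of Rora in the first CT8 male (0.549), Chka in the second CT8 male (0.549) and Wee1 in the second CT32 female (0.566). In active libraries they were Pim3 in the first CT20 female (0.625), Dhrs9 in the first CT20 male (0.617), Rn18s-rs5 in the second CT20 male (0.571, 0.433% of counts) and the acinar pancreas markers in the second CT44 male (0.564, 37.0 CPM). The part of these libraries in the results was not tested beyond leaving each out.

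The phase difference of the second cycle differed between fed and fasted mice, by an interaction term in edgeR, for 1484 genes. On the log2 scale, fed minus fasted, the difference was 1.96 for Bmal1, 3.91 for Npas2, −1.44 for Per1, 1.02 for Cry1, −3.28 for Nr1d1, −2.79 for Nr1d2 and −2.99 for Ciart. It was 2.44 for S1pr1, −1.34 for Dnmbp, −2.09 for Enc1 and 1.49 for Arhgef19.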

How the results depend on the processing

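The 3727 genes called between the phases became 2331 in males only, 791 in females only, 1968 at an adjusted p under 0.01 and 1505 with a change of at least 1.5 times, and lay between 2715 and 4771 without 1 library. In the same order the genes higher in the active phase numbered 1109, 502, 1037 and 845 (1362 to 2389 without 1 library) and those higher at rest 1222, 289, 931 and 660 (1285 to 2382). The 2160 genes of the first cycle became 3305 with no filter, 3719 with all 40 controls, 1382 with no sex in the model, 816 in males, 351 in females, 867 at 0.01 and 1207 at 1.5 times, and 1282 to 3741 without 1 library, the highest without the first CT8 female and the lowest without the first CT8 male. The 1549 of the second became 2656 with all controls, 979 with no sex, 854 in males, 76 in females, 658 at 0.01 and 893 at 1.5 times, and 696 (without the second CT44 male) to 2239 (without the second CT8 female). The cycle difference, with 0 calls, gave 619 with no filter, 37 in DESeq2, 2 in males and 0 to 399 without 1 library (399 without the first CT8 female, 13 without the second CT44 female). The sex difference, with 0, gave 470 with no filter, 24 in DESeq2 and 0 to 278 without 1 library (278 without the first CT8 female). The 1484 fed minus fasted calls became 2439 with no filter, 641 with no sex, 965 in males, 10 in females, 502 at 0.01 and 799 (without the first fasted CT32 female) to 2725 (without the second fasted CT44 female). Males and females alone have fewer libraries; the other causes were not tested. With a replicate block the phase, first cycle, second cycle and fed minus fasted counts were 3271, 1793, 1285 and 1306, and no label says that same-numbered libraries share a source. Of 93 named genes called, 54 were called in every setting and 86 in every fit without 1 library. The sign turned for Per2 (−0.0685 in females, −0.0956 to 0.147 without 1 library), Csnk1e (0.0430 in females), Tmem25 (−0.0274 in males) and Esrra (0.0119 with no filter, 0.266 in females, −0.0469 to 0.0163 without 1 library). Of these, Tmem25 was called over both sexes and the others were not.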
